A study of Homo sapiens with 12 samples.

Results

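The insulin-like growth factor (IGF) binding proteins and receptors were followed through 4 groups of liver cancer cells. The members were the 10 rows of the gene count table named IGFBP1 to IGFBP7, IGF1R, IGF2R and INSR, out of 23583 rows, and were picked by name. There were 7 binding protein genes and 3 receptor genes. All 10 passed the filter on low counts that left 16946 rows for testing, but IGFBP5 and IGFBP7 reached 10 counts in every library of only 2 of the groups, both Huh7.

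The series measured gene expression by RNA sequencing in the hepatocellular carcinoma lines Huh7 and HCCLM3, each treated with an siRNA aimed at the circular RNA circASH2 (si-circASH2) or with a control siRNA (si-NC), to learn what silencing circASH2 does in metastasis. Each of the 4 groups (Huh7 si-NC, Huh7 si-circASH2, HCCLM3 si-NC and HCCLM3 si-circASH2) held 3 libraries of 29006781 to 30858895 counts. Each line is a single established cell line. The siRNA sequences and the time between siRNA and harvest were not given in the sources used here. Nothing in the labels states that replicates were separate cultures, so the spread that p-values rest on may be technical. The tables hold genes and not back-spliced junctions, so circASH2 itself was not measured here.

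IGF1 and IGF2 are secreted growth factors that signal mainly through the receptor tyrosine kinase IGF1R, and IGF2 also signals through the insulin receptor INSR. IGF2R has no kinase: it is the cation-independent mannose 6-phosphate receptor, which takes up IGF2 for degradation and carries newly made hydrolases to lysosomes. The 6 classical binding proteins hold IGFs with high affinity and set how much ligand reaches the receptors, while IGFBP7 binds IGFs weakly. The liver is the main source of circulating IGF1, and hepatocytes secrete IGFBP1 under the control of insulin and fasting.

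Values per library are CPM, counts relative to library size, scaled by TMM, a factor that balances the libraries. One library's floor of 3 counts was worth 0.0981 to 0.105 CPM. A mean level is given ± SD (n = 3) and a log2 fold change ± the standard error of the fit. A gene was called higher or lower where the edgeR quasi-likelihood test, adjusted by Benjamini and Hochberg over all 16946 rows, gave a p under 0.05.

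Hepatocyte identity differed between the lines. In Huh7 si-NC all 17 hepatocyte markers stood above 1 CPM with summed levels of 43000 to 43200 CPM, while in HCCLM3 si-NC 11 of 17 did and the sum was 343 to 353 CPM. ALB, the gene of serum albumin, had 9870 CPM in Huh7 si-NC and 3.24 CPM in HCCLM3 si-NC, and the liver factor HNF4A 242 and 94.9 CPM. Of the markers of other cells, 6 of 12 fibroblast and stellate markers in Huh7 si-NC and 10 in HCCLM3 si-NC lay under 1 CPM, as did 9 and 7 of 10 endothelial markers and 8 and 9 of 12 leukocyte markers. FAP, TIE1, CLEC4G, CD3E and MS4A1 were at 0 in every library, but other markers of the same lists were well above 1 CPM. In HCCLM3 si-NC CD68 had 154 CPM, LUM 34.3, PECAM1 15.1 and KDR 10.8 CPM, and in Huh7 si-NC PECAM1 had 26.0 CPM, COL1A2 24.4 and CD68 20.7 CPM.

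The upstream sequences are shown for the 3 members whose response to si-circASH2 differed between the lines by test (IGFBP4, IGF1R and IGF2R). RefSeq promoter entries (GRCh38.p14) were found for 8 of the 10 members, and none for IGFBP1 and IGFBP7. The 250 bases before the start are printed 5′ to 3′ on the gene's strand, and capitals mark the GC box GGGCGG, the TATA box TATAAA and the E-box CACGTG on either strand. They lie at chr17:40443200-40443449 (plus strand) for IGFBP4, chr15:98648289-98648538 (plus strand) for IGF1R and chr6:159968832-159969081 (plus strand) for IGF2R.

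IGFBP4: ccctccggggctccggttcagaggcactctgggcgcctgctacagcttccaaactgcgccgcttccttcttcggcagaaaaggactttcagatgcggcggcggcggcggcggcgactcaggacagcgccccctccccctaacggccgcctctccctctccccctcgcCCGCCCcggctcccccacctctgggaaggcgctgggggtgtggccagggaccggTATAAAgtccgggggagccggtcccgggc
IGF1R: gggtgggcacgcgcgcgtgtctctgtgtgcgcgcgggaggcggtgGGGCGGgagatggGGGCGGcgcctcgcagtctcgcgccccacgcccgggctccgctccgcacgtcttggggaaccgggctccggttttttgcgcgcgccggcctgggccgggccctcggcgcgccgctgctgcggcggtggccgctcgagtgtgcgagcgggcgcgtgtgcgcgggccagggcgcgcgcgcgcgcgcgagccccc
IGF2R: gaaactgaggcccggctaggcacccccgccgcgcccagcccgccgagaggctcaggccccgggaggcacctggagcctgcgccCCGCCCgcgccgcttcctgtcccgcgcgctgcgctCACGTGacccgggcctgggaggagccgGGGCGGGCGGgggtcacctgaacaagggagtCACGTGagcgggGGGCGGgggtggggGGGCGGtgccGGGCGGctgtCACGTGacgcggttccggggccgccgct

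The IGFBP4 window held 1 TATA box, found in 10.7% of all 35116 RefSeq promoter windows of this length, and 1 GC box, found in 42.6%. IGF1R had 2 GC boxes and neither of the other motifs, with a G and C content of 81.2% and 48 CpG dinucleotides, against medians of 58.0% and 11 over all windows. IGF2R had 6 GC boxes, of which 2 share 2 bases, and 3 copies of the E-box, a sequence present in 6.34% of windows. The FOXO motif GTAAACA was found in the window of IGFBP6 alone among the members with an entry, and in 2.98% of all windows. The AP-1 motif TGANTCA (6.57% of windows) was in none of the members' windows. These matches describe letters and not binding.

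The lines carried different sets of binding proteins before any knockdown. On the deposited FPKM scale, which divides by gene length and so allows genes to be set side by side, the 7 binding proteins of Huh7 si-NC summed to 49.3 ± 4.97 FPKM and those of HCCLM3 si-NC to 80.3 ± 1.95 FPKM. IGFBP2 made up 72.0 ± 1.62% of the sum in Huh7 si-NC and 7.96 ± 0.186% in HCCLM3 si-NC. IGFBP4 made up 14.2 ± 1.44% and 52.9 ± 0.767%, and IGFBP1 and IGFBP6 together supplied most of the rest in HCCLM3, with 21.0 ± 0.244% and 15.7 ± 1.40%. With CPM divided by exonic length in place of FPKM, IGFBP2 made up 47.0% in Huh7 si-NC and IGFBP4 30.7%, and in HCCLM3 si-NC they made up 2.56% and 58.0%. The same gene led each line on both scales.

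**Figure D1:**
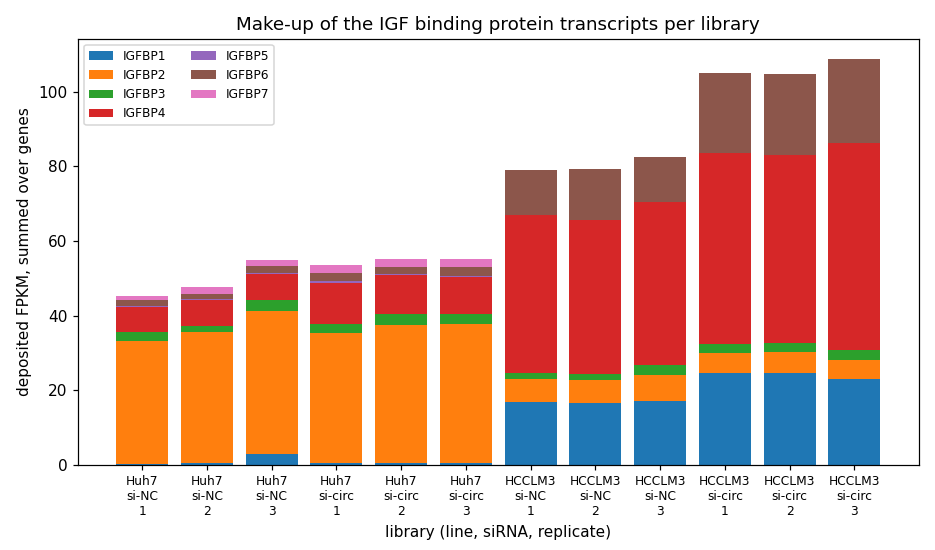
Summed deposited FPKM of the 7 IGF binding protein genes in each of the 12 libraries, with 1 bar per library and 1 colour per gene (si-circ stands for si-circASH2). IGFBP2 fills most of each Huh7 bar, and IGFBP4, IGFBP1 and IGFBP6 fill most of each HCCLM3 bar, whose sums rise from about the 80.3 FPKM mean of si-NC to 106 FPKM.

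In Huh7 si-NC the order by mean FPKM ran IGFBP2 (35.4), IGF2R (30.3), INSR (8.80), IGFBP4 (6.92), IGF1R (4.04), IGFBP3 (2.30), IGFBP6 (1.62), IGFBP7 (1.52), IGFBP1 (1.24) and IGFBP5 (0.239). Neighbours from IGFBP3 down overlapped between libraries, so their order is not resolved. In HCCLM3 si-NC it ran IGFBP4 (42.5), IGF2R (31.6), IGFBP1 (16.9), IGFBP6 (12.6), IGFBP2 (6.40), INSR (5.52), IGF1R (4.62) and IGFBP3 (1.92), with no overlap between neighbours. IGFBP7 (0.0174) and IGFBP5 (0.00312) closed the order there and overlapped. Both orders hold for FPKM only. With CPM divided by exonic length in kb, IGF2R (25.6 to 26.2) stood above IGFBP2 (11.2 to 13.0) in Huh7 si-NC. On that scale IGFBP2 (mean 2.11) lay below INSR (5.13) and IGF1R (4.39) in HCCLM3 si-NC. IGF2R was the most abundant receptor transcript in all 4 groups, with 70.2 ± 0.447% of the 3 receptors' FPKM in Huh7 si-NC and 75.7 ± 1.02% in HCCLM3 si-NC.

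Tested between the si-NC libraries, HCCLM3 against Huh7, 5 members were higher and 4 lower. The comparison called 85.2% of all tested rows, so that a called member is the usual case here. Among the lower members, IGFBP5 and IGFBP7 passed the count filter only through the Huh7 groups, where they were higher, so their calls are description. The line difference has no replicate beyond these 2 lines. The median absolute log2 fold change over all rows was 0.96. IGFBP1, IGFBP2, IGFBP4 and IGFBP6 ranged from -2.51 (IGFBP2) to 3.76 (IGFBP1), none nearer to 0 than -2.51. IGFBP3 gave -0.28, and the receptors ranged from -0.69 (INSR) to 0.19 (IGF1R).

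IGFBP1, the insulin-repressed binding protein of hepatocytes, had 0.492, 1.14 and 5.31 CPM in the Huh7 si-NC libraries and 30.9, 31.6 and 31.8 CPM in those of HCCLM3. The HCCLM3 libraries lay tightly together and far above those of Huh7, while their hepatocyte markers were lower. The log2 fold change was 3.76 ± 0.46 (adjusted p = 5.25e-05 by edgeR), and without Huh7 si-NC replicate 3, the library at 5.31 CPM, it was 5.27 (adjusted p = 3.31e-19 by edgeR). IGFBP4 had 17.2 ± 0.264 CPM in Huh7 and 105 ± 2.42 CPM in HCCLM3, higher by 2.61 ± 0.06 on the log2 scale (adjusted p = 1.43e-22 by edgeR). IGFBP6, a binding protein that prefers IGF2, had 2.15 ± 0.241 and 16.7 ± 1.58 CPM, a difference of 2.95 ± 0.11 on the log2 scale (adjusted p = 2.05e-17 by edgeR).

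IGFBP2, abundant in fetal liver and in many tumours, had 53.2, 57.0 and 62.1 CPM in Huh7 si-NC and 9.96, 9.31 and 10.9 CPM in HCCLM3 si-NC, a log2 fold change of -2.51 ± 0.07 (adjusted p = 1.95e-20 by edgeR). IGFBP5 and IGFBP7 were nearly absent from HCCLM3. IGFBP5 gave 154 counts over the Huh7 si-NC group and 2 over HCCLM3 si-NC, a ratio of 75.3 with a 95% counting interval of 20.5 to 627. Under si-circASH2 it gave 254 and 0 counts, at least 84.4-fold higher in Huh7 against a floor of 3 counts over the group. IGFBP7 gave 223 and 3 counts in the si-NC groups, a ratio of 72.7 (24.5 to 355). HCCLM3 si-NC replicate 3 held 2 of the counts of each gene, and without it the fitted log2 fold change of IGFBP7 went from -6.02 to -6.85 and that of IGFBP5 from -5.99 to -8.66. Counts of 1 (1938 values) were rarer in the table than counts of 2 (6826), so the lowest counts are uncertain, and these intervals cover counting error only. The exons of IGFBP7 overlap those of POLR2B, on the opposite strand, by 270 bases, and a strand setting of the counting was not given in the sources used here.

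IGFBP3, the main carrier of IGFs in blood, did not pass (log2 fold change -0.28 ± 0.21, adjusted p = 0.21 by edgeR). Its HCCLM3 si-NC libraries had 4.10, 3.61 and 6.97 CPM, and without the third, HCCLM3 si-NC replicate 3, the value was -0.63 (adjusted p = 0.00244 by edgeR). Among the receptors, INSR was lower in HCCLM3, at 53.6 ± 1.07 against 86.4 ± 3.07 CPM (log2 fold change -0.69 ± 0.04, adjusted p = 5.72e-13 by edgeR). IGF1R was slightly higher, at 61.2 ± 0.621 against 53.6 ± 1.31 CPM (0.19 ± 0.05, adjusted p = 0.000826 by edgeR). IGF2R differed by 0.08 ± 0.03 (adjusted p = 0.0364 by edgeR), a call that was lost in 11 of 21 alternatives, where p reached 0.264 without HCCLM3 si-NC replicate 2.

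The ligand IGF2 had a larger ratio between the lines than any member. It had 74622 to 81852 counts per library in Huh7 si-NC and 2 to 5 in HCCLM3 si-NC, and over the groups 231652 against 10 counts, a ratio of 22600 (95% counting interval 12300 to 47200). IGF1 gave 62 counts over Huh7 si-NC and 0 over HCCLM3 si-NC, at least 20.2-fold higher in Huh7 against 3 counts over the group. INS was at 0 in all libraries. IGF2 did not pass the test after si-circASH2 in Huh7, with a log2 fold change of 0.05 (adjusted p = 0.657 by edgeR).

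After si-circASH2 in Huh7, 3 members were called higher (IGFBP4, IGFBP6 and IGF2R) and 1 lower (INSR), 4 of 10 beside 31.4% of all rows called. In HCCLM3 3 were called higher (IGFBP4, IGFBP6 and IGF1R) and 0 lower by edgeR, beside 30.6% of all rows. The count lower in HCCLM3 was 1 (IGFBP2) at an unadjusted p under 0.05, 0 by DESeq2 and 1 by limma. The 3 si-circASH2 libraries lay wholly on one side of the 3 si-NC libraries for 5 members in Huh7 (42.7% of all rows) and for 5 in HCCLM3 (43.7%). These shares are near the background, so the members as a set did not stand out by count. The median log2 fold change of the 10 members was 0.25 in Huh7 and 0.13 in HCCLM3, beside 0.01 and 0 over all rows. The HCCLM3 median includes IGFBP5 (-2.67) and IGFBP7 (-1.30), with 2 and 3 counts over si-NC and 0 and 1 over si-circASH2. For any single gene with no overlap, an exact two-sided permutation test gave p = 0.1, the smallest that 20 arrangements of 3 against 3 libraries allow.

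**Figure D2:**
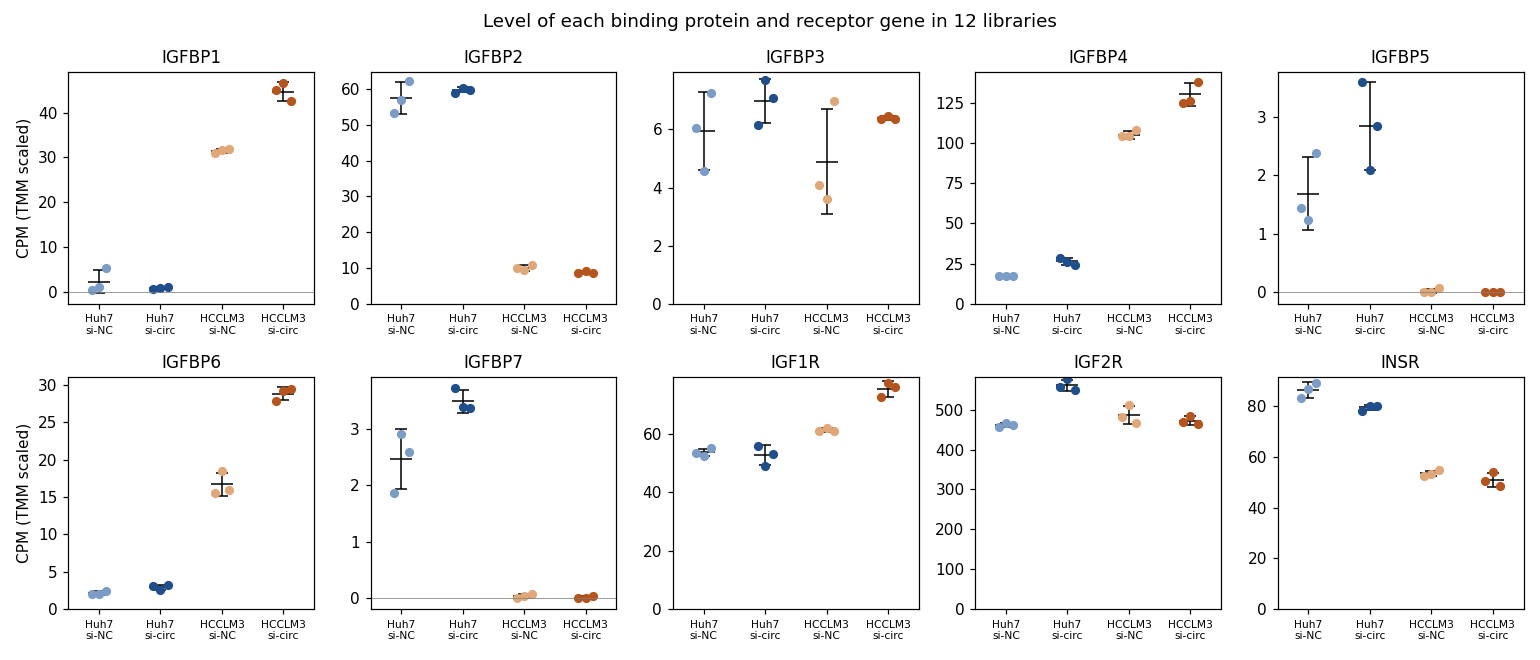
TMM-scaled CPM of each of the 10 genes, 1 point per library (3 per group), with the group mean as a horizontal dash and the SD as a bar. si-circ stands for si-circASH2, and each panel has its own linear axis. IGFBP4 and IGFBP6 are higher with si-circASH2 in both lines, and 1 Huh7 si-NC library of IGFBP1 stands at 5.31 CPM above the others.

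IGFBP4, which holds IGFs away from their receptor until a protease cuts it, rose in both lines. In Huh7 the si-NC libraries had 17.2, 17.5 and 17.0 CPM and the si-circASH2 libraries 28.6, 26.1 and 24.3 CPM. The groups were far apart and every treated library was higher. The log2 fold change was 0.61 ± 0.06 (adjusted p = 3.62e-08 by edgeR), a fold of 1.53. In HCCLM3 the levels were 104, 104 and 108 CPM against 125, 126 and 138 CPM, again without overlap, a log2 fold change of 0.30 ± 0.05 (adjusted p = 3.03e-05 by edgeR). On the log2 scale the rise was smaller in HCCLM3 by 0.31 (interaction -0.31 ± 0.08, adjusted p = 0.00485 by edgeR), in a comparison that called 20.9% of all rows. In the FPKM scale IGFBP4 moved from 6.92 to 10.4 in Huh7 and from 42.5 to 52.4 in HCCLM3, so the larger gain in FPKM was in HCCLM3.

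IGFBP6 also rose in both lines by test, more firmly in HCCLM3. There the si-NC libraries had 15.6, 18.5 and 16.0 CPM and the si-circASH2 libraries 27.8, 29.2 and 29.4 CPM. All treated libraries lay well above the controls, with a log2 fold change of 0.79 ± 0.09 (adjusted p = 2.19e-07 by edgeR). In Huh7 the levels were 2.07, 1.97 and 2.43 CPM against 3.05, 2.49 and 3.17 CPM. The lowest treated library was just above the highest control, with a log2 fold change of 0.43 ± 0.14 (adjusted p = 0.0221 by edgeR). That call was lost with the line fitted alone (0.103) and on leaving out Huh7 si-NC replicate 1 (0.0729) or 2 (0.0914), or Huh7 si-circASH2 replicate 1 (0.0703) or 3 (0.0978). The difference between the lines did not pass (0.36 ± 0.17, adjusted p = 0.138 by edgeR).

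Summed fibroblast and leukocyte markers also stood higher where IGFBP4 and IGFBP6 rose. The endothelial sum overlapped between the siRNAs in Huh7 and was lower with si-circASH2 in HCCLM3. The 12 fibroblast and stellate markers summed to 41.1 to 47.6 CPM in Huh7 si-NC and 64.0 to 65.4 CPM in Huh7 si-circASH2, and to 36.3 to 39.2 and 49.9 to 54.9 CPM in HCCLM3. The largest part was COL1A2 in Huh7 (24.4 CPM in si-NC and 38.9 in si-circASH2) and LUM in HCCLM3 (34.3 and 48.4 CPM). For the 12 leukocyte markers the Huh7 sums were 25.3 to 26.7 CPM in si-NC and 44.0 to 48.0 CPM in si-circASH2, and the HCCLM3 sums 157 to 177 and 188 to 224 CPM. Most of the leukocyte sum was CD68, a lysosomal membrane protein of macrophages, which rose by 0.90 in Huh7 (adjusted p = 7.33e-08 by edgeR) and by 0.28 in HCCLM3 (0.00187). The 10 endothelial markers lay at 24.8 to 28.1 and 24.3 to 25.0 CPM in Huh7 and at 29.7 to 31.4 and 22.4 to 25.4 CPM in HCCLM3. The part of these markers in the IGFBP4 and IGFBP6 values was not tested.

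The Huh7 value of IGFBP1 depended on 1 library. In Huh7 its counts were 15, 34 and 162 in si-NC and 21, 23 and 34 in si-circASH2, so Huh7 si-NC replicate 3 stood apart from the other 5. The log2 fold change of -1.41 ± 0.81 did not pass (adjusted p = 0.239 by edgeR), and without that library it was 0.10 (adjusted p = 0.861 by edgeR). In HCCLM3 the levels were 30.9, 31.6 and 31.8 CPM in si-NC and 45.1, 46.5 and 42.5 CPM in si-circASH2. The treated libraries were all higher by a wide margin, but the log2 fold change of 0.51 ± 0.33 did not pass in the fit of all 12 libraries (adjusted p = 0.306 by edgeR). It passed with HCCLM3 fitted alone (0.51, adjusted p = 1.68e-09 by edgeR) and without Huh7 si-NC replicate 3 (0.51, adjusted p = 2.55e-05 by edgeR), in fits whose spread for IGFBP1 does not include that library. The summed hepatocyte markers lay at 43000 to 43200 CPM in Huh7 si-NC and at 40200 to 41000 CPM in Huh7 si-circASH2. In HCCLM3 they lay at 343 to 353 and at 388 to 399 CPM, and their part in the IGFBP1 values was not tested.

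The other binding proteins did not pass in either line. IGFBP5, found in matrix and bone, had 1.44, 1.24 and 2.39 CPM in Huh7 si-NC and 3.59, 2.09 and 2.84 CPM in Huh7 si-circASH2, groups that overlapped (log2 fold change 0.74 ± 0.31, adjusted p = 0.0735 by edgeR). It passed without Huh7 si-NC replicate 3 (1.08, adjusted p = 0.0223 by edgeR), without Huh7 si-circASH2 replicate 2 (0.92, 0.049) and with Huh7 fitted alone (0.0301). IGFBP7, a secreted protein of vessels and stroma, had 1.87, 2.91 and 2.59 against 3.73, 3.38 and 3.37 CPM in Huh7, higher in all 3 treated libraries (0.51 ± 0.24, adjusted p = 0.124 by edgeR). It passed with Huh7 fitted alone (0.0432) and by limma on log2(FPKM + 1) (0.32, adjusted p = 0.00788). Of 9 fibroblast and stellate markers tested in Huh7, whose list summed to more CPM under si-circASH2, 4 were higher (COL1A2, COL3A1, LUM and PDGFRB), beside 16.3% of all rows. COL3A1 was low, at 0.276 CPM in Huh7 si-NC and 0.952 in Huh7 si-circASH2. COL1A1 (-0.09), PDGFRA (0.03), RGS5 (0.17) and DES (0.60) did not pass. DCN, counted among the 9, was at 0 in Huh7, as were FAP and THY1. The part of these markers in the IGFBP5 and IGFBP7 values was not tested.

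IGFBP2 had 53.2, 57.0 and 62.1 CPM in Huh7 si-NC and 59.0, 60.4 and 59.8 CPM in Huh7 si-circASH2 (log2 fold change 0.06 ± 0.06, adjusted p = 0.512 by edgeR). In HCCLM3 it had 9.96, 9.31 and 10.9 against 8.71, 9.06 and 8.56 CPM, lower in every treated library, at -0.20 ± 0.08 (adjusted p = 0.0696 by edgeR). Without HCCLM3 si-NC replicate 2 it passed (-0.25, adjusted p = 0.0402 by edgeR). IGFBP3 had 4.10, 3.61 and 6.97 CPM in HCCLM3 si-NC and 6.37, 6.47 and 6.35 CPM in HCCLM3 si-circASH2. The third control library was above all treated ones (0.38 ± 0.20, adjusted p = 0.179 by edgeR), and without it, HCCLM3 si-NC replicate 3, the log2 fold change was 0.73 (adjusted p = 0.00324 by edgeR). In Huh7 IGFBP3 gave 0.23 ± 0.20 (adjusted p = 0.436 by edgeR).

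In sum over the 7 binding proteins, the deposited FPKM went from 80.3 ± 1.95 to 106 ± 2.18 in HCCLM3, with no overlap (79.1 to 82.6 against 105 to 109). In Huh7 it went from 49.3 ± 4.97 to 54.6 ± 0.853, where the groups overlapped (45.4 to 54.9 against 53.6 to 55.1). No test was made of these sums. Within the sum, IGFBP6 went from 15.7 ± 1.40% to 20.6 ± 0.253% in HCCLM3, and IGFBP4 from 14.2 ± 1.44% to 19.1 ± 1.44% in Huh7.

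The receptors responded in different lines. IGF1R, the receptor that carries most IGF signalling, rose in HCCLM3 from 60.8, 62.0 and 61.0 CPM to 72.4, 77.5 and 75.9 CPM. No treated library overlapped the controls, and the log2 fold change was 0.30 ± 0.05 (adjusted p = 3.26e-05 by edgeR). In Huh7 it had 53.4, 52.4 and 55.0 against 55.8, 49.0 and 53.0 CPM, overlapping groups with a log2 fold change of -0.03 ± 0.05 (adjusted p = 0.735 by edgeR). The responses differed between the lines by 0.33 ± 0.07 (adjusted p = 0.00112 by edgeR).

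IGF2R did the converse. In Huh7 it rose from 457, 467 and 461 CPM to 558, 576 and 550 CPM, a gap several times the spread of either group (log2 fold change 0.28 ± 0.03, adjusted p = 8.76e-07 by edgeR). In HCCLM3 it had 483, 513 and 468 CPM in si-NC and 470, 485 and 464 CPM in si-circASH2, which overlapped (-0.04 ± 0.03, adjusted p = 0.365 by edgeR). The difference of the responses was -0.33 ± 0.05 (adjusted p = 2.65e-05 by edgeR). After si-circASH2 in Huh7, IGF2R (36.1 FPKM) and IGFBP2 (36.4 FPKM) overlapped as the most abundant members on the FPKM scale. With CPM divided by exonic length in kb, IGF2R (30.8 to 32.3) stood above IGFBP2 (12.4 to 12.7) in that group. There IGFBP2 overlapped IGFBP4 (11.1 to 13.0) instead.

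INSR fell by a small amount in Huh7, from 83.2, 86.8 and 89.3 CPM to 78.3, 80.1 and 80.3 CPM. The groups did not overlap, but the log2 fold change of -0.12 ± 0.04 only just passed (adjusted p = 0.0404 by edgeR). The call was lost in 12 of 22 alternatives, among them upper quartile scaling (0.0818), library totals (0.0796), and leaving out any 1 of 7 libraries, with p up to 0.161 without Huh7 si-NC replicate 3. In HCCLM3 INSR had 52.7, 53.2 and 54.8 against 50.5, 53.9 and 48.7 CPM (-0.07 ± 0.05, adjusted p = 0.276 by edgeR).

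**Figure D3:**
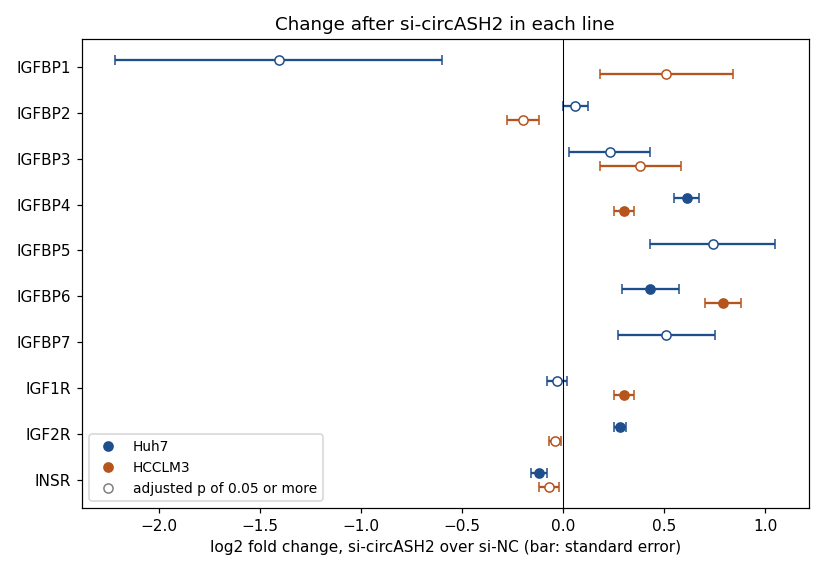
Log2 fold change of si-circASH2 over si-NC for each gene in Huh7 (blue) and HCCLM3 (orange), with the standard error as a bar. Filled points have an edgeR adjusted p under 0.05, and IGFBP5 and IGFBP7 are not drawn for HCCLM3, where they had 0 to 2 counts per library. IGFBP4 and IGFBP6 are filled in both lines, IGF1R in HCCLM3 alone and IGF2R in Huh7 alone.

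The members lie on 8 chromosomes, and 4 of them form neighbouring pairs on opposite strands (GENCODE 29, GRCh38). IGFBP1 (chromosome 7, 45888357 to 45893668) and IGFBP3 (45912245 to 45921874) are 18.6 kb apart, and IGFBP2 (chromosome 2, 216632828 to 216664436) and IGFBP5 (216672105 to 216695525) are 7.67 kb apart. In HCCLM3 si-NC neighbours did not share a level: IGFBP1 had 16.9 FPKM and IGFBP3 1.92 FPKM, and IGFBP2 had 6.40 FPKM where IGFBP5 was near 0. In Huh7 si-NC IGFBP1 (0.264 to 2.85 FPKM) and IGFBP3 (1.75 to 2.81 FPKM) overlapped, while IGFBP2 (35.4) stood above IGFBP5 (0.239). IGFBP2 and IGFBP5 were both lower in HCCLM3 si-NC than in Huh7 si-NC. IGFBP4 (chromosome 17, 40443461 to 40457731) lies 25.5 kb from TOP2A, the DNA topoisomerase of dividing cells, and 18.1 kb from TNS4, a focal adhesion protein. Neither moved with it in both lines: TOP2A fell by 0.26 in Huh7 (adjusted p = 7.19e-07 by edgeR) and was higher by 0.22 in HCCLM3 (adjusted p = 6.62e-06 by edgeR), and TNS4 had a log2 fold change of -0.91 in HCCLM3 (adjusted p = 0.00783 by edgeR). IGFBP6 (chromosome 12, 53097436 to 53102345) lies 1.17 kb from SOAT2, which makes cholesterol esters and was at 34.4 CPM in Huh7 si-NC and 0.0673 CPM in HCCLM3 si-NC, the opposite order to IGFBP6.

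Like profiles were sought among tested genes with symbols whose 4 group means span at least 0.5 on the log2 scale. The profiles most like that of IGFBP4 belonged to LBH (Euclidean distance 0.09 on the centred log2 CPM), RPP25L (0.17) and NEDD9 (0.18). Those most like IGFBP6 were HEY1 (0.16), SDPR (0.20) and C1QTNF1 (0.25). For IGF1R they were C16orf95 (0.04), TTC26 (0.05) and HIST1H3H (0.06), and for IGF2R SPDYE5, FMNL3 and ZMYND15 at 0.19 to 0.21. IGF2R itself spans 0.28, below the 0.5 required of candidates, so genes as flat as IGF2R were not searched. Its distances therefore cannot show whether genes more like IGF2R exist. With 4 points per profile these distances are descriptions.

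Binding proteins are cut by proteases, and receptors need processing. Of 14 tested genes for ligands, complex partners and proteases, 3 were higher and 1 lower in Huh7, and 6 higher and 5 lower in HCCLM3, beside 31.4% and 30.6% of all rows called in either direction. The median log2 fold changes were 0.02 and 0.26. FURIN, a convertase that cleaves the precursors of IGF1R and INSR, fell in both lines, by 0.53 ± 0.04 in Huh7 (adjusted p = 4.18e-09 by edgeR) and 0.61 ± 0.05 in HCCLM3 (adjusted p = 6.12e-09 by edgeR). PAPPA, the protease known for cutting IGFBP4, was below the filter, at 0.286 CPM in Huh7 si-NC and 0.203 CPM in HCCLM3 si-NC. STC2, an inhibitor of PAPPA, rose by 0.17 ± 0.04 in Huh7 (adjusted p = 0.0014 by edgeR) and by 0.16 in HCCLM3 (0.00311).

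In HCCLM3 the plasminogen activators went opposite ways. PLAU rose by 0.97 ± 0.07 (adjusted p = 7.21e-10 by edgeR) and PLAT fell by 1.41 ± 0.10 (adjusted p = 1.02e-10 by edgeR). The aspartic protease CTSD, also a cargo of IGF2R, rose by 0.37 ± 0.04 in HCCLM3 (adjusted p = 1.84e-06 by edgeR) and by 0.12 in Huh7 (0.0422). ADAM28, which can cut IGFBP3, rose by 0.70 ± 0.08 in Huh7 (adjusted p = 6.82e-07 by edgeR) and fell by 0.36 in HCCLM3 (0.0044).

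IGF2R shares its lysosomal route with the smaller receptor M6PR, tagging enzymes, hydrolase cargo and retrieval proteins. Of 42 genes of this route, 18 were higher and 5 lower in Huh7, and 12 higher and 7 lower in HCCLM3, beside 16.3% higher and 15.1% lower of all rows in Huh7 and 15.1% and 15.5% in HCCLM3. The medians were 0.09 and 0.05. In Huh7, where IGF2R rose, examples were PLIN3 (TIP47, described as a partner of mannose 6-phosphate receptors; 0.51, adjusted p = 1.28e-09 by edgeR) and the peptidase TPP1 (0.29, 1.27e-06). In HCCLM3, where IGF2R did not pass, TPP1 also rose (0.15, adjusted p = 0.00292 by edgeR) and PLIN3 did not pass (-0.09, 0.0756). The sorting receptor SORT1 fell by 0.36 in Huh7 (adjusted p = 1.92e-06 by edgeR) and by 0.36 in HCCLM3 (1.05e-05). In HCCLM3 the cathepsins CTSB (0.36, adjusted p = 3.13e-08 by edgeR) and CTSL (0.35, 1.9e-07) rose, while the hydrolases GLA (-0.40, 2.47e-08) and IDS (-0.36, 5.89e-08) fell. In Huh7 CTSB (0.15, adjusted p = 0.00218 by edgeR), CTSL (0.26, 3.29e-05) and IDS (0.31, 2.75e-05) rose, and GLA did not pass (0.02, 0.715). M6PR itself gave 0.08 in Huh7 (adjusted p = 0.0808 by edgeR) and rose by 0.13 in HCCLM3 (0.00726).

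Downstream of IGF1R and INSR, 56 signalling genes were tested, of which 12 were higher and 13 lower in Huh7 and 9 higher and 13 lower in HCCLM3, beside 31.4% and 30.6% of all rows called in either direction. The medians were -0.02 and -0.05. SHC1, an adaptor that links receptors to RAS, fell by 0.72 ± 0.03 in HCCLM3 (adjusted p = 3.66e-14 by edgeR) and by 0.14 in Huh7 (0.00137). GAB1, another adaptor, rose by 0.43 in HCCLM3 (adjusted p = 7.65e-05 by edgeR) and fell by 0.29 in Huh7 (0.0035), and the phosphatase INPPL1 went the other way, by -0.25 in HCCLM3 (0.000118) and 0.29 in Huh7 (4.47e-05).

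Other genes of the route moved by small amounts. GSK3B rose by 0.32 in Huh7 (adjusted p = 1.68e-06 by edgeR), the AKT phosphatase PHLPP1 by 0.44 (2.81e-05) and the pseudokinase TRIB3 by 0.35 (3.1e-05). GSK3B and PHLPP1 also rose in HCCLM3, by 0.19 (adjusted p = 0.00117 by edgeR) and 0.25 (0.00978), while TRIB3 did not pass there (-0.05, 0.52). In Huh7 the translation brake EIF4EBP1 fell by 0.35 (adjusted p = 3.21e-05 by edgeR). In HCCLM3 MTOR rose by 0.21 (adjusted p = 0.000142 by edgeR), its partner RPTOR by 0.24 (0.000198) and the receptor adaptor GRB10 by 0.26 (2.62e-05), while PIK3R3, a PI3 kinase subunit, fell by 0.43 (0.000136). PIK3R3 also fell in Huh7, by 0.25 (adjusted p = 0.00404 by edgeR), where MTOR, RPTOR and GRB10 did not pass. The insulin receptor substrates IRS1 and IRS2 did not pass in Huh7, and in HCCLM3 IRS2 rose by 0.69 (adjusted p = 0.00206 by edgeR).

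FOXO factors switch on genes that insulin and IGF signals repress, IGFBP1 among them. Of 18 tested factors and targets other than IGFBP1, 6 were higher and 2 lower in each line, beside 31.4% of all rows called in Huh7 and 30.6% in HCCLM3. The medians were 0.14 and 0.04. SESN3, a stress sensor, rose by 0.79 ± 0.08 in Huh7 (adjusted p = 5.04e-08 by edgeR) and by 1.25 in HCCLM3 (0.0112), where it was under 1 CPM. FOXO1 rose by 0.31 in Huh7 (adjusted p = 0.000157 by edgeR), FOXO3 fell by 0.24 in HCCLM3 (0.00189) and TXNIP, which limits glucose uptake, rose by 0.79 in HCCLM3 (0.000521). TXNIP also rose in Huh7, by 0.29 (adjusted p = 0.0215 by edgeR). FOXO1 did not pass in HCCLM3 (0.16, adjusted p = 0.0592 by edgeR), nor FOXO3 in Huh7 (-0.09, 0.235). The receptor ERBB3 fell by 0.49 in Huh7 (adjusted p = 7.97e-05 by edgeR) and rose by 0.41 in HCCLM3 (0.00118), and TRIB1 rose by 0.23 in Huh7 (0.000317) and fell by 0.33 in HCCLM3 (8.48e-07). The gluconeogenic targets PCK1 and G6PC stood at 1.29 and 0.273 CPM in Huh7 si-NC and at 0 in HCCLM3 si-NC.

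Other genes whose proteins carry an IGFBP domain were called higher in 4 of 10 cases in Huh7 and 5 of 10 in HCCLM3, and the rest did not pass. Of all rows, 16.3% were called higher in Huh7 and 15.1% in HCCLM3 (31.4% and 30.6% in either direction). The medians of the 10 genes were 0.33 and 0.46. At an unadjusted edgeR p under 0.05 there were 5 higher and 0 lower in Huh7, and 6 higher and 1 lower (KAZALD1) in HCCLM3. CYR61, a matrix protein of the CCN family, went from 15.7 to 54.4 CPM in Huh7 (1.79 ± 0.07, adjusted p = 1.46e-14 by edgeR) and from 13.0 to 16.4 CPM in HCCLM3 (0.33, 0.003). Its relative CTGF rose by 0.57 ± 0.05 in Huh7 (adjusted p = 2.81e-09 by edgeR), and CRIM1, a membrane protein, by 0.32 (5.12e-06). IGFBPL1, the closest relative by name, went from 10.2 to 19.9 CPM in HCCLM3 (0.97 ± 0.09, adjusted p = 2.77e-08 by edgeR) and from 0.308 to 0.568 CPM in Huh7 (0.88, 0.0278). HTRA1, a serine protease, rose by 0.58 in HCCLM3 (adjusted p = 0.000624 by edgeR). NOV rose there by 2.82 (adjusted p = 0.00135 by edgeR), from 0.249 to 1.78 CPM. It had 22 counts over HCCLM3 si-NC and 159 over HCCLM3 si-circASH2, against 2 and 10 over the Huh7 groups. NOV thus met the count filter mainly through the group where it was higher, so its call is description. Another of the 5 genes called in HCCLM3 rested on 3 counts over si-NC and 15 over si-circASH2.

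The IGF2 mRNA-binding proteins, oncofetal factors named for a transcript that Huh7 makes in abundance, were each called in HCCLM3, where 30.6% of all rows were. IGF2BP2 fell in both lines, by 0.23 in Huh7 (adjusted p = 0.000672 by edgeR) and by 0.39 in HCCLM3 (6.02e-06). IGF2BP3 fell by 0.17 in Huh7 (adjusted p = 0.0026 by edgeR) and rose by 0.36 in HCCLM3 (1.88e-07). IGF2BP1 rose by 0.10 in HCCLM3 (adjusted p = 0.03 by edgeR) and gave -0.01 in Huh7 (0.844).

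**Figure D4:**
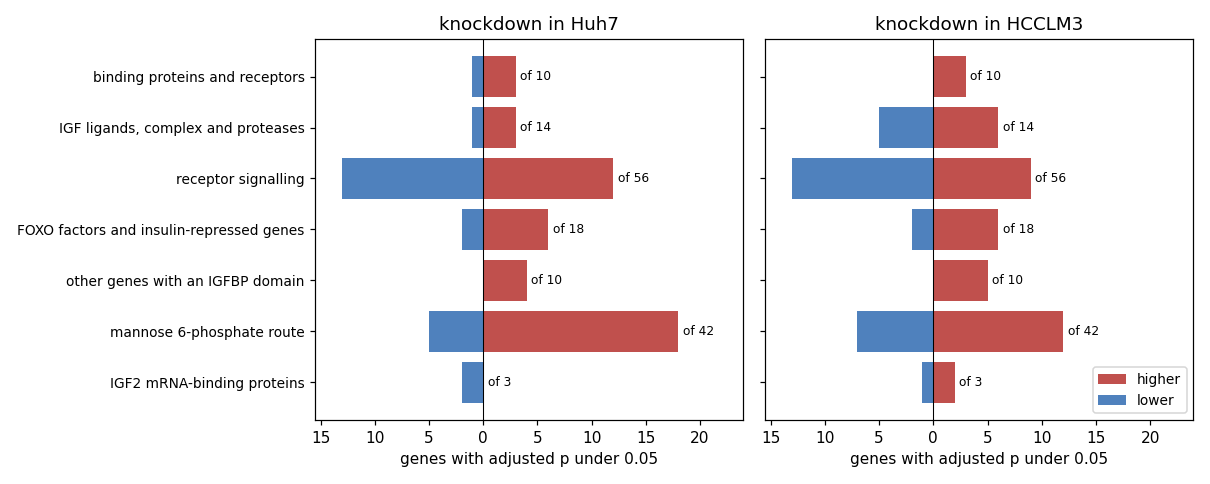
Number of genes with an edgeR adjusted p under 0.05 after si-circASH2, higher to the right and lower to the left of 0, for the 10 members and 6 related gene lists in each line, with the number tested beside each bar. Huh7 calls 18 genes of the mannose 6-phosphate route higher and 5 lower, and 4 genes with an IGFBP domain higher.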

How the data were processed

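RNA of 12 libraries was sequenced, and 2 tables of 23583 rows were used. The deposited counts are whole numbers per gene and library, per the file headers, and the deposited FPKM were scaled by the authors for length and depth, per the file headers. The aligner, counter, annotation and strand were not given in the sources used here, and the submitters' processing notes list hg38, GRCm38 and mm10 with no role. Per the labels' protocols, RNA came from a column kit and libraries from a SMARTer mRNA kit. Sequencing depth was 29006781 to 30858895 counts per library.

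Counts were fitted with edgeR 4.0.16 in R 4.3.3: filterByExpr with a minimum count of 10 (16946 rows), TMM scaling, 1 coefficient per group and the robust quasi-likelihood fit with 8 residual degrees of freedom. The comparisons were si-circASH2 against si-NC in each line, the difference of both responses (HCCLM3 minus Huh7) and HCCLM3 against Huh7 si-NC libraries, with p-values adjusted by Benjamini and Hochberg over all rows and a threshold of 0.05. Standard errors were taken from the fold change and its F statistic. DESeq2 1.42.0 and limma 3.58.1 on log2(FPKM + 0.1) or log2(FPKM + 1) were alternatives, beside other scalings, no filter, each line alone, a replicate block and each library left out. Pairs of replicates differed beyond sampling noise (chi-square per degree of freedom 3.72 to 8.02). The fit was tested on simulated data.

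The members and lists were chosen with earlier results of these data known. The 10 members were always named. From each related list, up to 4 genes per line (8 for receptor signalling) with the smallest p among those called were named, apart from some genes that are not reported here. M6PR, IRS1, IRS2, PAPPA, PCK1, G6PC, the ligands, the cell markers named and the genes beside members were named in addition, some after their values were seen. CTSD, HTRA1, HTRA3 and IRS2 stand in more than 1 list. For likeness, the 3 nearest of about 10996 genes whose group means span at least 0.5 on the log2 scale were taken.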

Additional observations from a re-analysis of the deposited data

Results flagged for a closer look

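The response to si-circASH2 differed between HCCLM3 and Huh7 by the test of the difference for 3 of the 10 members (edgeR, adjusted p under 0.05 over all rows). Of all rows, 20.9% were called by that test. The differences, HCCLM3 minus Huh7 on the log2 scale, were -0.31 for IGFBP4, 0.33 for IGF1R and -0.33 for IGF2R. IGFBP4 rose in both lines and less in HCCLM3, IGF1R was called higher in HCCLM3, and IGF2R was called higher in Huh7. Groups of 3 libraries were not tested for single outlying libraries.

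Of the 39 other genes named from the related lists, 22 also differed between the lines, where the test called 20.9% of all rows. These genes were named for a small p in at least 1 line, which favours such a difference, so the count is description. The response was higher in HCCLM3 for CTSD (0.25), PLAU (1.29), EIF4EBP1 (0.31), GRB10 (0.21), GAB1 (0.73), MTOR (0.17), ERBB3 (0.90), HTRA1 (1.30), CTSB (0.21) and IGF2BP3 (0.53). It was lower in HCCLM3 for ADAM28 (-1.05), PLAT (-1.85), TRIB3 (-0.41), INPPL1 (-0.54), SHC1 (-0.58), TRIB1 (-0.56), CYR61 (-1.46), CTGF (-0.49), CRIM1 (-0.36), PLIN3 (-0.60), GLA (-0.43) and IDS (-0.68).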

How the results depend on the processing

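The 40 member results (10 genes in 4 comparisons) gave 850 values over 22 alternatives. Of these, 796 kept their direction and side of the threshold, 28 lost the call, 21 gained one, 4 changed sign and 1 went to 0. The calls of IGFBP4 in both lines, IGFBP6 and IGF1R in HCCLM3, and IGF2R in Huh7, and the line differences of IGFBP4, IGF1R and IGF2R, were kept in every alternative run. The sign changed for IGFBP1 in Huh7 without Huh7 si-NC replicate 3 (0.10; -1.89 to 0.10 over all libraries left out), for IGF1R in Huh7 without Huh7 si-circASH2 replicate 2 (0.02; -0.07 to 0.02), and for the line difference of IGFBP3 without Huh7 si-NC replicate 3 (-0.01) or HCCLM3 si-NC replicate 2 (-0.02; -0.02 to 0.50), and the cause was not tested. For IGFBP5 in HCCLM3 the value went to 0 without HCCLM3 si-NC replicate 3 (-3.18 to 0), since the libraries left in both groups held 0 counts. The count of members lower in Huh7 went from 1 to 0 with upper quartile factors, library totals and all 3 limma settings, and was 0 to 1 with 1 library left out. In HCCLM3 it went from 0 to 1 (IGFBP2) with all 3 limma settings, and was 0 to 1 with 1 library left out. With limma on log2(FPKM + 1) the line difference counted 2 members higher and 4 lower against 1 and 2, and 1 to 2 were higher with 1 library left out. Members called higher were 2 to 4 in Huh7 and 3 to 4 in HCCLM3 with 1 library left out. CPM divided by exonic length moved the share of IGFBP2 among binding proteins from 72.0% to 47.0% (Huh7 si-NC) and from 7.96% to 2.56% (HCCLM3 si-NC), that of IGFBP4 from 14.2% to 30.7% and from 52.9% to 58.0%, and that of IGF2R among receptors from 70.2% to 68.1% and from 75.7% to 74.2%. Upper quartile factors and library totals moved the median of all genes by at most 0.02 on the log2 scale. A replicate block gave 2767 genes higher and 2582 lower in Huh7 (2761 and 2553 without) and 2574 and 2641 in HCCLM3 (2555 and 2627 without). Under the block 4 members were higher in Huh7, IGFBP5 having passed (0.0473). Same-numbered libraries deviated together with r of -0.192, 0.03 and 0.014 in Huh7 and -0.01, 0.027 and 0.133 in HCCLM3, and not every library correlated best with its own number, so the numbers were not taken as pairs. The fits of each line alone give no line difference, and IGFBP5 and IGFBP7 had no value in HCCLM3 alone. Depth limits IGFBP5, IGFBP7 and IGF1 in HCCLM3, where a library held at most 2 counts of each.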
